A study of Mus musculus with 4 samples.

Results

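Type I interferon-stimulated genes were followed in natural killer (NK) cells of mouse bone marrow as a group of 37 genes listed by symbol. The list was drawn up with earlier results of these data known, so its common direction is a description and not independent evidence. Each symbol was matched to its row in the deposited tables, and all 37 members were found among the 37310 genes measured. Of these, 36 passed the filter on low counts and were tested, among 13904 tested genes in all. The members were sorted by role into 12 sensors of foreign nucleic acid, 15 antiviral effectors, and 10 genes of feedback and signalling.

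Interferons alpha and beta bind the receptor made of Ifnar1 and Ifnar2, and the kinases Jak1 and Tyk2 then phosphorylate Stat2. Stat2 acts with Irf9 in a complex that binds a DNA element, the interferon-stimulated response element, in promoters of interferon-stimulated genes. The induced proteins detect viral RNA, block steps of viral growth, or restrain the signal itself. NK cells, lymphocytes of the innate immune system with killer activity, respond to type I interferon with stronger killing.

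The cells were CD3e-NK1.1+CD49b+ cells sorted from C57BL/6 mice aged 6 to 8 weeks. Libraries came from 2 samples of littermate controls (Ctrl) and 2 samples of the genotype Gabpb1l-/-Gabpb2-/- (dKO). The dKO samples lack the long form of Gabpb1 and lack Gabpb2, partner subunits of the Ets-family transcription factor GABP. The labels name the libraries of a group as separate biological replicates, and do not state the controls' alleles, the animals' sex, whether animals were pooled, or how the alleles were made. If the replicates are not separate animals, the p-values cover technical spread alone. The series compared RNA between these groups.

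Gene counts summed to between 30233870 and 34724516 per library. Gabpb2 had 1244 and 1009 counts in Ctrl and 85 and 86 in dKO, while a count over all of Gabpb1 does not isolate its long form. Transcripts linked to sex split the groups in full: Xist had 6066 and 6430 counts in Ctrl and 2 and 9 in dKO, and Ddx3y had 0 in both Ctrl libraries and 8933 and 6757 in dKO. Genotype and this difference cannot be told apart for any result below. The 9 markers of NK cells summed to 12686 and 11753 CPM in Ctrl against 10179 and 10370 CPM in dKO (CPM is the count scaled to a common library size, with TMM factors), and the defining receptor genes Ncr1 (1608 CPM on average in Ctrl, 1403 CPM in dKO) and Klrb1c, the gene of NK1.1 (1763 CPM, then 1474 CPM), were abundant in all libraries. In a bulk sample, fewer cells of a type and less RNA per cell cannot be told apart.

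All 36 tested members had a lower fitted level in dKO than in Ctrl, and 3 of them fell past the threshold: Usp18, Mx1 and Ifit1 (edgeR quasi-likelihood test, Benjamini-Hochberg adjusted p below 0.05 over all tested genes). Over all tested genes, 0.295% were called lower and 0.316% higher. No member was called higher, none had a higher level at an unadjusted p below 0.05, and DESeq2 called none higher. The median log2 fold change (dKO minus Ctrl) of the 36 members was -0.70, beside 0.01 over all tested genes. Unadjusted p-values below 0.05 with a lower level were seen for 23 of the 36, beside 5.34% of all tested genes. In 32 of the 36 both dKO libraries lay below both Ctrl libraries, a pattern held by 19.9% of all tested genes. The opposite arrangement was seen in no member and in 21.7% of all tested genes. DESeq2 called 10 of the 36 lower, beside 1.41% of the genes to which it gave an adjusted p.

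**Figure D1:**
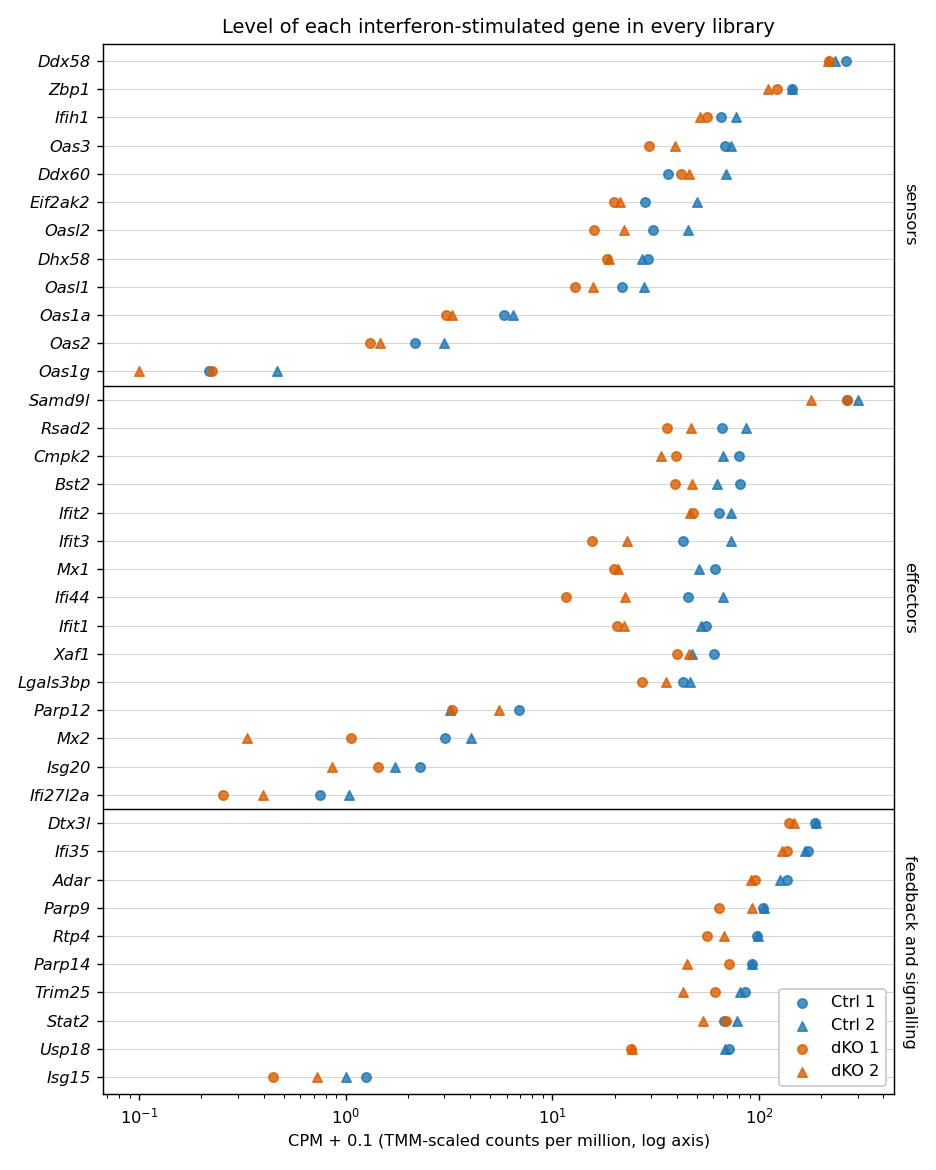
Level of the 37 genes in each library, as CPM plus 0.1 on a log axis, grouped by class and ordered by the Ctrl mean within a class. Circles and triangles are the libraries 1 and 2 of a group, blue for Ctrl and orange for dKO. Orange points lie left of both blue points in 32 of the 36 tested genes, and Usp18 has both its dKO points at 24 CPM.

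The 4 tested members whose groups overlapped were Ddx60, Parp12, Samd9l and Stat2. Oas1g, an oligoadenylate synthetase, was the member left untested, with 4 and 12 counts in Ctrl and 4 and 0 in dKO. Measured per gene length by the deposited TPM values, the members spanned a wide range of levels in Ctrl. Ifi35, which binds and regulates signalling proteins of the response, was highest at 291 TPM (mean of 2 libraries), followed by Zbp1 at 228 TPM and Bst2 at 221 TPM. Usp18 stood at 62.3 TPM and Mx1 at 33.2 TPM. The lowest tested members were Oas2 at 1.2 TPM and Mx2 at 2.33 TPM.

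Effectors held 2 of the 3 called genes. Mx1 encodes a dynamin-like GTPase that traps viral nucleocapsids. The strain C57BL/6 carries a defective Mx1 allele. Mx1 was at 61.2 and 50.9 CPM in the Ctrl libraries and at 19.8 and 20.6 CPM in the dKO libraries. The lowest Ctrl library was thus well above both dKO libraries. Mx1 fell 2.78-fold (log2 fold change -1.47 with SE 0.20, edgeR adjusted p = 0.0235). It lies on chromosome 16 from 97447035 to 97462907 (GRCm38, GENCODE release M21; ENSMUSG00000000386). Its neighbour Mx2, a related GTPase gene, is listed in release M21 as a polymorphic pseudogene. Mx2 had 99 and 130 counts in Ctrl and 31 and 7 in dKO, a large but poorly measured difference (log2 fold change -2.50 with SE 0.72, adjusted p = 0.253).

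The Ifit genes encode proteins that bind viral RNA and block its translation. Ifit2, Ifit3 and Ifit1 lie in this order on chromosome 19, between 34550694 and 34650009. Ifit1 was at 55.5 and 52.3 CPM in Ctrl against 20.5 and 22.1 CPM in dKO, with narrow spread in both groups. It fell 2.53-fold (log2 fold change -1.34 with SE 0.19, edgeR adjusted p = 0.0279). Ifit3, whose reads may be shared with its copy Ifit3b, was at 42.8 and 73.4 CPM in Ctrl against 15.4 and 22.8 CPM in dKO. Its groups did not overlap, but the Ctrl libraries stood far apart, and it missed the threshold (log2 fold change -1.61 with SE 0.31, adjusted p = 0.0790). Ifit2 was at 64.1 and 73.2 CPM in Ctrl against 47.8 and 46.3 CPM in dKO, a smaller difference than for Ifit1 and Ifit3 (log2 fold change -0.55 with SE 0.18, adjusted p = 0.312).

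Promoter bases of some members, chosen as stated below, are shown because the response element is where the complex with Stat2 and Irf9 binds. Ifi44, with a log2 fold change of -1.73, had a window with 0 matches and is not shown. They come from RefSeq promoter windows (GRCm38.p6, matched by symbol), which covered 27 of the 37 members and not Dhx58, Ifi27l2a, Mx1, Mx2, Oas2, Parp14, Parp9, Rtp4, Usp18 or Zbp1. The 250 bases before each start site were searched on both strands for the letters GAAANNGAAA, the core of the response element. Capitals mark each match, read on either strand, and matches may overlap. Every line ends at the base before the RefSeq start site. Ifit1, Ifit3 and Cmpk2 were taken by the order of p, and Oas3, Oas1a and Oas1g were added after the values were seen.
Ifit1 (chr19:34640770-34640888, plus strand): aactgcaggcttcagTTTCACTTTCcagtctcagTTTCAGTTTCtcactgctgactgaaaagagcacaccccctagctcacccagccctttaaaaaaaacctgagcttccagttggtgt
Ifit3 (chr19:34583358-34583528, plus strand): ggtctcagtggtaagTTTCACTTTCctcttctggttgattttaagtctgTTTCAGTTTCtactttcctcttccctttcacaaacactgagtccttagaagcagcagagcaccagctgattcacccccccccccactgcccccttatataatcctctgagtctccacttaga
Cmpk2 (chr12:26469100-26469214, plus strand): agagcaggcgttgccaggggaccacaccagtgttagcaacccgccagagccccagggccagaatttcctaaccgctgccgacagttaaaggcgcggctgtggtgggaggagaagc
Oas3 (chr5:120777660-120777774, minus strand): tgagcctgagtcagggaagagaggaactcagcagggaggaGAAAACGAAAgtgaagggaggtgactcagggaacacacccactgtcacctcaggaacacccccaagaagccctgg
Oas1a (chr5:120907526-120907640, minus strand): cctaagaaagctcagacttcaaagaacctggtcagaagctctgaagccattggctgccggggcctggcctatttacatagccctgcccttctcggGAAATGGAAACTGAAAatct
Oas1g (chr5:120887614-120887728, minus strand): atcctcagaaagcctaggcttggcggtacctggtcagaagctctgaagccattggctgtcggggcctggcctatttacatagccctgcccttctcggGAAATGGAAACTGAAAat

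The letters were present in 10 of the 32 windows of the 27 members, 1 window for each of 10 genes (Bst2, Ddx60, Ifit1, Ifit3, Isg15, Oas1a, Oas1g, Oas3, Rsad2 and Stat2), and in 2.98% of all 32851 promoter windows of that length. Ifit1 and Ifit3 each held the element at 2 places, and Cmpk2 held none in its window. Stat2 and Ddx60, whose groups overlapped, also held it. The Ets-family core CCGGAAG, the kind of site that Gabpa binds, was found on either strand for Ifit2 and Rsad2 among the 27, and in 6.91% of all windows. A match is a string of letters and not a measured site.

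Among the remaining effectors, Cmpk2, a nucleotide kinase gene of mitochondria, was at 80.0 and 66.8 CPM in Ctrl against 39.5 and 33.5 CPM in dKO. Its difference missed the threshold (log2 fold change -1.01 with SE 0.20, adjusted p = 0.0790). Ifi44, an inhibitor of viral growth, was at 45.4 and 66.5 CPM in Ctrl against 11.5 and 22.3 CPM in dKO. Both groups varied and did not meet (log2 fold change -1.73 with SE 0.34, adjusted p = 0.0834). Rsad2, which encodes viperin and lies beside Cmpk2 on chromosome 12, was at 66.3 and 86.5 CPM in Ctrl against 35.8 and 46.9 CPM in dKO. Bst2, which encodes the tether that holds budding virus at the cell surface, was at 80.7 and 62.2 CPM in Ctrl against 39.1 and 47.4 CPM in dKO. Neither passed (adjusted p = 0.172 and 0.242).

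The effector genes Lgals3bp, Xaf1, Samd9l and Parp12 had log2 fold changes from -0.51 to -0.21, with adjusted p from 0.442 to 0.933. Samd9l, which encodes a growth-restraining antiviral factor, was the effector with the highest CPM, at 266 and 302 CPM in Ctrl against 267 and 177 CPM in dKO. Only the library dKO 2 stood apart there. Ifi27l2a (22 and 31 counts in Ctrl, 5 and 9 in dKO) and the exonuclease gene Isg20 (74 and 54, then 43 and 23) had few counts. Over the 15 effectors the median log2 fold change was -0.88. In 13 of them both dKO libraries lay below both Ctrl libraries, beside 19.9% of all tested genes.

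**Figure D2:**
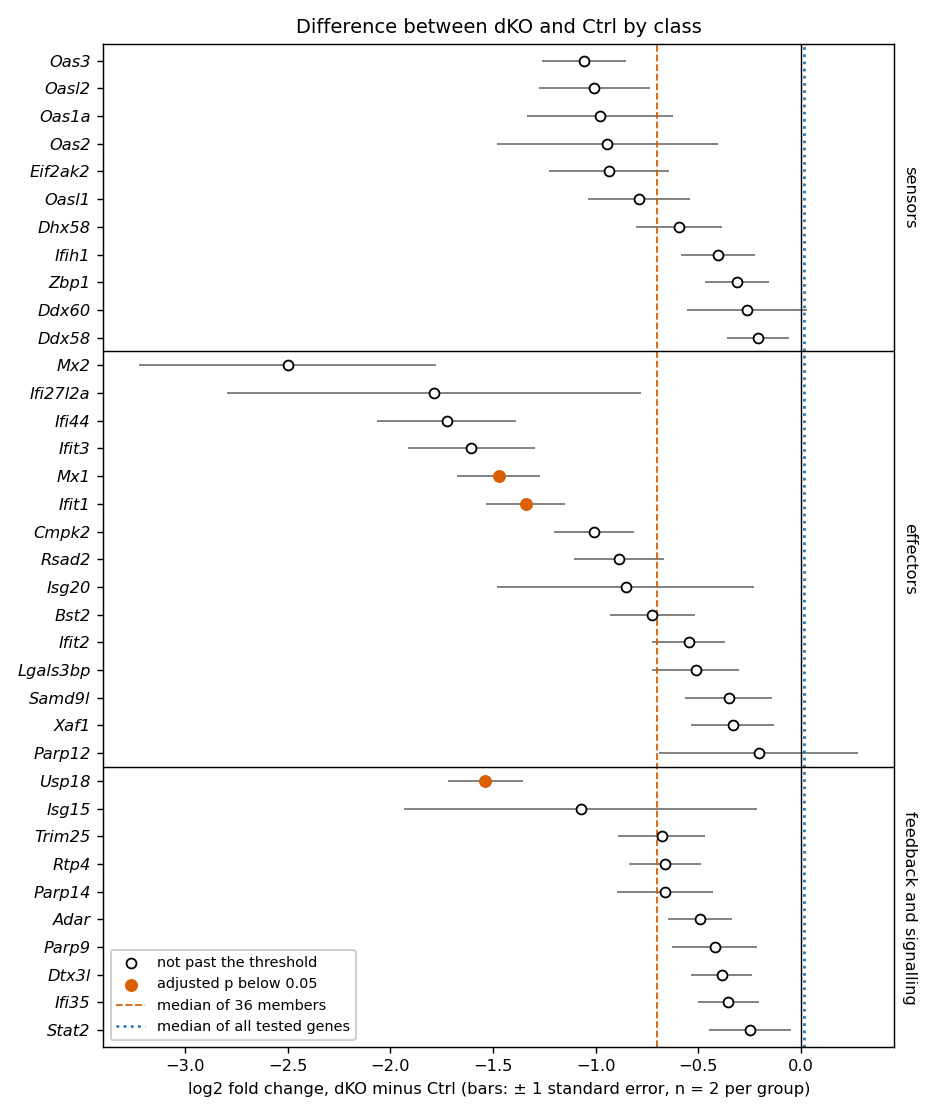
Log2 fold change (dKO minus Ctrl) of the 36 tested members by class, with bars of 1 standard error. The dashed line is their median of -0.70 and the dotted line the median of all tested genes, 0.01. All points lie below 0, and the filled points are Usp18, Mx1 and Ifit1.

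Sensors had no called gene among the 11 tested. Without adjustment 6 of them had p below 0.05, all with a lower level in dKO, and DESeq2 called Oas3 and Oasl2 lower. Oas3 belongs to the oligoadenylate synthetases, which recognise double-stranded RNA. It was at 68.7 and 73.2 CPM in Ctrl against 29.3 and 38.9 CPM in dKO, and missed the edgeR threshold (log2 fold change -1.06 with SE 0.20, adjusted p = 0.0790). The dKO libraries stood clearly below the tight Ctrl pair. The relative Oasl2 was at 30.7 and 45.2 CPM in Ctrl against 15.8 and 22.0 CPM in dKO (log2 fold change -1.01 with SE 0.27, adjusted p = 0.213). Oasl1, which restrains translation of Irf7, had a log2 fold change of -0.79 (SE 0.25, adjusted p = 0.288).

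Eif2ak2, the gene of the RNA-activated kinase PKR that halts translation, was at 28.0 and 50.2 CPM in Ctrl against 19.8 and 21.1 CPM in dKO. Its Ctrl libraries differed more from each other than the lower of them did from dKO (log2 fold change -0.94 with SE 0.29, adjusted p = 0.284). Oas1a, at 196 and 210 counts in Ctrl and 95 and 96 in dKO, and Oas2, at 70 and 96 and then 39 and 41 counts, were weakly expressed. The Oas1a reads may be shared with close copies such as Oas1g. The count per RSEM fragment was 1.62 for Oas1a and 1.25 for Oas1g, beside a median of 2.06 over all well-measured genes.

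The helicases that sense viral RNA in the cytoplasm, and Zbp1, had the 5 smallest differences among the sensors. Ddx58, the gene of RIG-I, was at 265 and 234 CPM in Ctrl against 217 and 214 CPM in dKO (log2 fold change -0.21 with SE 0.15, adjusted p = 0.708). Its groups did not overlap, though the difference was small next to that of the Oas genes. Ifih1, the gene of MDA5, had a log2 fold change of -0.41 (SE 0.18, adjusted p = 0.493), and Dhx58, the gene of the regulator LGP2, had -0.59 (SE 0.21, adjusted p = 0.365). Zbp1, a sensor of Z-form nucleic acid that can trigger necroptosis, was at 144 CPM in both Ctrl libraries and at 122 and 110 CPM in dKO. Ddx60, a helicase that aids RIG-I, overlapped between groups at 36 and 68.7 CPM in Ctrl against 41.6 and 45.6 CPM in dKO. Over the 11 tested sensors the median log2 fold change was -0.79. In 10 of them both dKO libraries lay below both Ctrl libraries, beside 19.9% of all tested genes. Whether the classes differ from one another was not tested.

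Feedback and signalling genes held Usp18, the member with the smallest p. Usp18 encodes a protease that removes Isg15 from proteins and also blocks the receptor at Ifnar2, which makes it a main brake on the response. It was at 71.3 and 68.5 CPM in Ctrl against 24.0 and 24.2 CPM in dKO. Both pairs of libraries were tight and far apart from each other. Usp18 fell 2.90-fold (log2 fold change -1.54 with SE 0.18, edgeR adjusted p = 0.0137) and ranked 29 by p among all tested genes. On GRCm38 it lies on chromosome 6 from 121245906 to 121270917 (ENSMUSG00000030107).

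Rtp4, which restrains interferon induction, was at 97.1 and 98.9 CPM in Ctrl against 55.9 and 67.8 CPM in dKO (log2 fold change -0.66 with SE 0.18, adjusted p = 0.207). Trim25, the ubiquitin ligase gene that aids RIG-I, was at 85.0 and 80.8 CPM in Ctrl against 61.1 and 42.5 CPM in dKO (adjusted p = 0.286). In both, the Ctrl pair was tight and the dKO pair was lower and wider. Adar, whose product edits double-stranded RNA and so hides it from sensors, was at 136 and 127 CPM in Ctrl against 95.6 and 91.3 CPM in dKO (log2 fold change -0.49 with SE 0.16, adjusted p = 0.295). Parp9 and Dtx3l, genes of an ADP-ribosylating ubiquitin ligase pair that overlap on chromosome 16, had log2 fold changes of -0.42 and -0.39, and their relative Parp14 had -0.66. Reads of Parp9 and Dtx3l may not be separable where the genes overlap. Stat2 itself, at 67.2 and 78.0 CPM in Ctrl against 69.0 and 53.1 CPM in dKO, had the smallest difference of the class (log2 fold change -0.25 with SE 0.20, adjusted p = 0.746).

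Isg15, a ubiquitin-like protein that Usp18 removes from its targets, was listed with few counts. It had 39 and 30 counts in Ctrl and 11 and 19 in dKO, or 2.84 TPM on average in Ctrl (log2 fold change -1.07 with SE 0.86, adjusted p = 0.749). The difference was close to its standard error. Isg15 had the highest count per RSEM fragment of the tested members (2.54). The annotation release is not given in the sources used here, so whether the counts cover the transcribed Isg15 copy is not known. Over the 10 genes of this class the median log2 fold change was -0.58. In 9 of them both dKO libraries lay below both Ctrl libraries, beside 19.9% of all tested genes.

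Calls were fewer when 1 library was left out, over all tested genes as well as among the members. Such a fit has 1 library in a group and so less information on spread. Log2 fold changes in these fits ran from -1.57 to -1.51 for Usp18, -1.60 to -1.33 for Mx1 and -1.40 to -1.29 for Ifit1. Leaving out dKO 1 left 0 members called, without dKO 2 Ifi44 was called alone, without Ctrl 1 Ifit3 and Usp18 were called, and without Ctrl 2 Mx1 and Usp18 were called. Ifit1 was thus called in none of these fits (adjusted p from 0.0609 to 0.143). The median log2 fold change of the members stayed between -0.77 and -0.66 across them, and 35 or 36 of the 36 members were negative.

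The sign of the difference between libraries of 1 group varied from member to member. The difference Ctrl 2 minus Ctrl 1, on log2 values of CPM plus 0.5, had a median of 0.02 over the 36 members and ran from -1.02 for Parp12 to 0.92 for Ddx60. Ddx60, Eif2ak2, Ifit3, Oasl2 and Ifi44 were higher in Ctrl 2 by 0.55 to 0.92, while the same difference was -0.37 for Bst2 and -0.34 for Xaf1. The difference dKO 2 minus dKO 1 had a median of 0.09 and was highest for Ifi44 at 0.92 and lowest for Mx2 at -1.0. Each dKO library set against each Ctrl library gave a negative median over the members, from -0.52 to -0.76, with 33 to 35 of the 36 genes lower. These 4 pairings share libraries and are not independent.

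**Figure D3:**
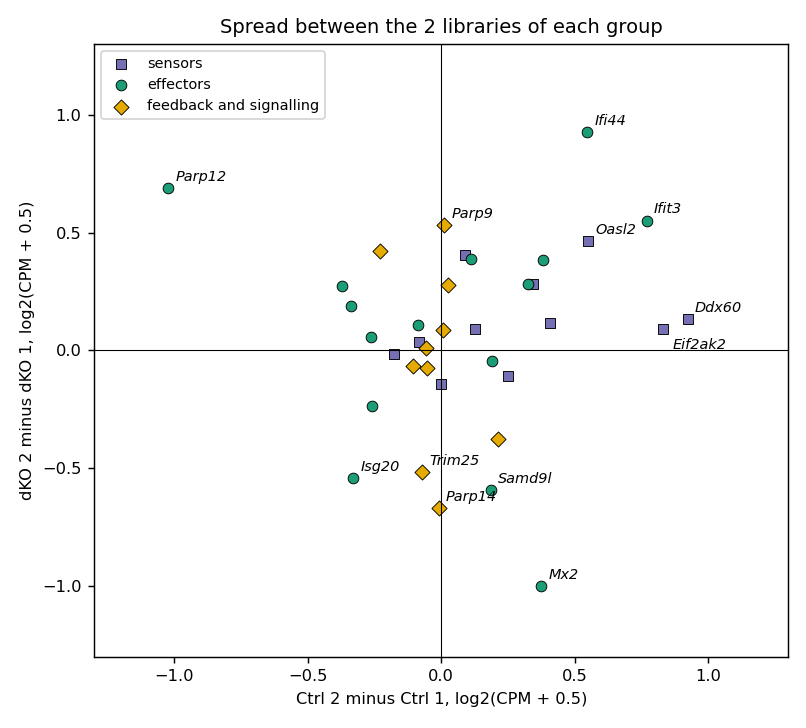
Difference between the libraries of a group for each of the 36 tested members, on log2(CPM + 0.5), with Ctrl 2 minus Ctrl 1 on the horizontal and dKO 2 minus dKO 1 on the vertical axis. Symbols mark the class, and genes that differ by more than 0.5 in either group are named. Ddx60 at 0.92 and Parp12 at -1.02 are the ends of the Ctrl axis.

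Apart from Ifng, interferon genes were at or near 0. Of 20 interferon genes listed beside the members, 14 had 0 counts in every library, among them Ifnb1, and 2 were tested. Ifng, the type II interferon that NK cells secrete, was at 136 CPM in Ctrl against 128 CPM in dKO on average (log2 fold change -0.08 with SE 0.26, adjusted p = 0.955). Ifnk, the other tested gene, had at most 15 counts. No receptor or kinase gene was called among the 9 tested, by edgeR or by DESeq2. Ifnar1 (log2 fold change 0.45 with SE 0.17, adjusted p = 0.409) and Ifnar2 (0.37 with SE 0.15, adjusted p = 0.430) had higher levels in dKO at unadjusted p below 0.05, the opposite sign to the members.

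The factors that carry the response had 1 called gene among 8 tested. Irf8, a factor of immune cell differentiation, fell from 855 CPM to 434 CPM on average (log2 fold change -0.98 with SE 0.15, edgeR adjusted p = 0.0337). When each of the 4 libraries was left out in turn, it missed the threshold each time, with adjusted p of 0.0622 to 0.142. DESeq2 also called Irf8 lower. Irf9 (-0.53 with SE 0.16, adjusted p = 0.257) and Irf7 (-0.51 with SE 0.20, adjusted p = 0.430), the amplifier of interferon production, also had negative values. Irf1 and Irf3 were at -0.06 and 0.10. None of 9 genes that restrain the signal was called, 1 in each direction had an unadjusted p below 0.05, and DESeq2 called Socs3 higher. Socs3, an inhibitor of cytokine receptors, was at 127 CPM in Ctrl against 238 CPM in dKO (log2 fold change 0.91 with SE 0.24, adjusted p = 0.209), and Ptpn11 was at -0.58 (SE 0.24, adjusted p = 0.450).

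Adaptors and kinases that induce interferon gave no call among 14 tested, 1 of which had an unadjusted p below 0.05, and DESeq2 called none. Their median log2 fold change was -0.07, with Tlr7, the X-linked receptor for single-stranded RNA, at -1.26 (SE 0.53, adjusted p = 0.455) and Irak4 at -0.19 (SE 0.18, adjusted p = 0.784). A further 41 interferon-stimulated genes outside the 37 were tested, and edgeR called none, while DESeq2 called Ifit3b and Rnf213 lower. Unadjusted p below 0.05 was seen for 10 lower and 1 higher, and their median log2 fold change was -0.11 with 28 negative. Ifit3b, a close copy of Ifit3 listed in the files as I830012O16Rik, had 191 and 279 counts in Ctrl and 33 and 72 in dKO. Rnf213, a large antiviral ubiquitin ligase gene, was at 87.3 CPM in Ctrl against 52.2 CPM in dKO (adjusted p = 0.166). Sp100, Shisa5 and Nmi all had log2 fold changes of -0.02, and these names were chosen after their values were seen.

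Genes led by interferon gamma, which overlap in part with the type I response, had 2 called members among 19 tested, both lower. The GTPase genes Gbp6 (log2 fold change -1.47 with SE 0.17, edgeR adjusted p = 0.0111) and Iigp1 (-1.70 with SE 0.28, adjusted p = 0.0465) fell. Gbp6 missed the threshold without dKO 1 (adjusted p = 0.0578), and Iigp1 without Ctrl 1, dKO 1 or dKO 2 (adjusted p = 0.142 to 0.147) or with limma-voom (0.0511). DESeq2 called both, and also Igtp, lower (adjusted p = 0.0103 for Igtp, beside 0.111 with edgeR). The median of that list was -0.32.

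**Figure D4:**
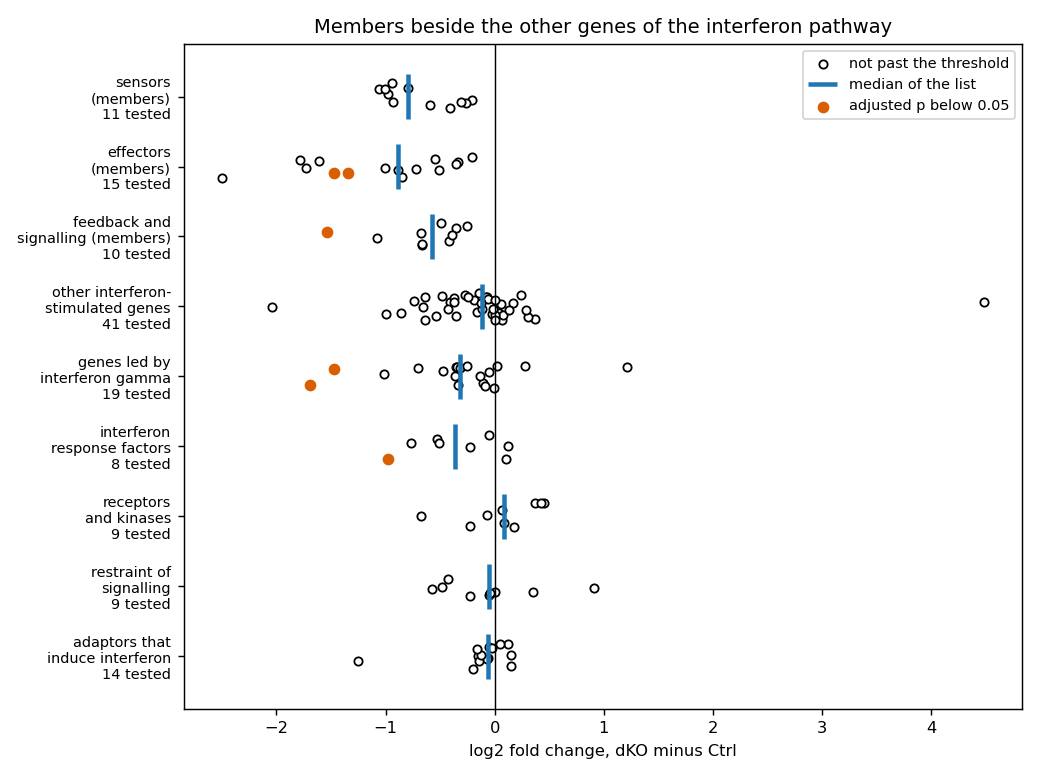
Log2 fold change (dKO minus Ctrl) of the 3 member classes and of 6 other lists of the interferon pathway, 1 point per tested gene, with the vertical bar at the median. Filled points passed the threshold. Medians run from -0.88 for effectors to 0.09 for receptors and kinases, and the point at 4.48, a fitted value that depends on the prior count, is Ifi205, which had 0 and 2 counts in Ctrl and 27 and 20 in dKO.

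Of the 9 NK cell markers, 6 had negative log2 fold changes and 3 positive (median -0.20), and 5 had both dKO libraries below both Ctrl libraries. That arrangement was held by 19.9% of all tested genes. At unadjusted p below 0.05, 2 were lower and 0 higher. edgeR called none, and DESeq2 called Gzma lower (adjusted p = 0.00498). Markers of other cells moved with the members in part. The 9 T cell markers summed to 711 and 628 CPM in Ctrl against 308 and 408 CPM in dKO, and 3 of them (Tcrg-C, Cd3e and Trac) fell, with log2 fold changes of -2.31, -2.24 and -1.90. All 9 had negative log2 fold changes (median -1.50), 8 had both dKO libraries below both Ctrl libraries, and DESeq2 called 6 lower. Trac missed the threshold without Ctrl 2 or dKO 1 (adjusted p = 0.0549 and 0.0739). The 6 markers of type 1 innate lymphoid cells summed to 266 and 316 CPM in Ctrl against 179 and 177 CPM in dKO, with none called by edgeR. All 6 were negative, 3 of them with unadjusted p below 0.05, and DESeq2 called Il7r lower (adjusted p = 0.0133). The 9 markers of plasmacytoid dendritic cells, the main makers of type I interferon, summed to 155 and 238 CPM in Ctrl against 168 and 173 CPM in dKO, and these sums overlapped. Of the 9, 7 had negative log2 fold changes (median -0.58), 3 had an unadjusted p below 0.05 with both dKO libraries below both Ctrl libraries, and edgeR called none. DESeq2 called Spib lower (adjusted p = 0.0264), while Siglech had 82 and 173 counts in Ctrl and 112 and 90 in dKO. The 9 monocyte and macrophage markers summed to 3388 and 3721 CPM in Ctrl against 3761 and 4350 CPM in dKO. These sums were higher in dKO, but by gene 4 markers were negative and 5 positive (median log2 fold change 0.02). Unadjusted p below 0.05 was seen for 0 of them in either direction. Sums overlapped between groups for the 10 neutrophil markers (1322 to 2720 CPM), 8 B lineage markers (88.2 to 208 CPM) and 7 erythroid markers (229 to 481 CPM). None of them was called by edgeR. By gene, 9 of the 10 neutrophil markers were negative (median log2 fold change -0.42), 3 with unadjusted p below 0.05. All 8 B lineage markers were negative (median -0.98), also 3 with unadjusted p below 0.05. All 7 erythroid markers were negative (median -0.21), with 0 at unadjusted p below 0.05. DESeq2 called 1 neutrophil and 1 B lineage marker lower (Elane and Igll1). No marker in these lists was at 0 in every library, and the part of these cells in the members' levels was not tested.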

How the data were processed

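The members, classes and lists were chosen with earlier results of these data known. Per the submitters' processing notes, the genome build was mm9 and the tools included TopHat2 2.1.1 with HTSeq 0.6.1 and RSEM 1.3.0, beside Trimmomatic 0.36, FastQC 0.11.5 and DESeq2 1.32.0. The sources used here do not state the annotation release or the strand setting. Whole-number gene counts were deposited for each library, and, per the file headers, RSEM tables with expected counts, TPM and FPKM (FPKM was not used). RNA was extracted from cells sorted into Trizol and made into Smart-seq2 libraries, per the labels' protocols.

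Rows that name no gene (18.1% to 24.3% outside genes and 2.20% to 2.34% ambiguous) were left out. Counts were tested with edgeR 4.0.16 in R 4.3.3 (TMM scaling, filterByExpr with a minimum count of 10, robust quasi-likelihood F test, group as the only term), with Benjamini-Hochberg adjustment over 13904 genes and a threshold of 0.05. Standard errors (SE) were taken as the size of the log2 fold change over the root of the F statistic. With 2 libraries a group, the smallest two-sided p of an exact permutation test is 0.333, and edgeR goes lower by pooling information on spread over genes. The whole-number counts were 2.06 times the RSEM counts at the median, and the cause was not tested. Where an older symbol was used in the files, list genes were matched through RefSeq synonyms. The procedure was also run on simulated counts, whose planted changes were larger than the median difference of the members. How well it finds differences of the members' size was not tested.

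Named with the value in every library were called members and the 3 members of each class with the smallest p. Other lists of the interferon pathway gave their called genes, or the 2 with the smallest p. The lists of cell markers did not all follow this rule. Further names were chosen after their values were seen. Alternatives were DESeq2 1.42.0, limma-voom (limma 3.58.1), other scalings and filters, RSEM counts rounded to whole numbers, a fit that was not robust, a replicate block, and leaving out each library. Some genes of the lists are not reported here.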

Additional observations from a re-analysis of the deposited data

How the results depend on the processing

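The number of members called lower was 3 as reported, 10 with DESeq2, 15 when no genes were filtered out beyond those at 0, 7 with a stricter filter of at least 5 CPM in 2 libraries and 5 with the replicate number as a block, and 0 to 2 with 1 library left out. Over all genes, calls lower in dKO were 41 as reported, 211 with DESeq2, 303 without the filter, 75 with the stricter filter and 13 to 34 with 1 library left out. Calls higher in dKO were 44, 185, 256, 73 and 21 to 35 in the same order. The median log2 fold change of the effectors ran from -1.13 to -0.87 with 1 library left out, and that of the sensors from -0.96 to -0.60. That of feedback and signalling genes ran from -0.60 to -0.45 there, and was -0.48 with the stricter filter, which left Isg15 out. Leaving out a library leaves 1 in its group, which is then assumed to vary like the others. Usp18 had adjusted p from 7.36e-10 to 0.0721 over all alternatives and missed the threshold without dKO 1 or dKO 2. Mx1 (6.34e-08 to 0.120) missed it without Ctrl 1, dKO 1 or dKO 2, and Ifit1 (1.00e-06 to 0.143) missed it without each of the 4 libraries in turn. The replicate block added Ifi44 and Ifit3 to the members called and removed none, while Irf8 outside the members lost its call (adjusted p = 0.0786). Same-numbered libraries deviated from their group means with a correlation of -0.05 across genes, so no shift shared by number was seen over all genes. Single genes or small sets could still share one, and whether the numbers pair the samples was not tested. Signs turned for Ddx60 without Ctrl 2 (0.28, with a range from -0.66 over the left-out libraries) and for Parp12 without Ctrl 1 (0.47, range from -0.66) or dKO 1 (0.13). The cause was not tested. Isg15, Isg20, Ifi27l2a, Mx2, Oas2 and Oas1g had few counts, and what depth allowed there was not tested.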

Other observations

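Isg15 was among the lowest members per gene length, with 29.6% of tested genes below its Ctrl mean of 2.84 TPM, while Ifi35, with 95.7% below, Zbp1, with 94.2%, and Bst2, with 94.0%, were among the higher genes of the cell. Whether the annotation used by the authors covers the transcribed Isg15 copy is not known.

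Ifi205, an interferon-inducible gene of a cluster of close copies, had 0 and 2 counts in Ctrl and 27 and 20 in dKO (edgeR adjusted p = 0.312), against the direction of the members. Mnda, another gene of that family, had 601 and 453 counts in Ctrl and 244 and 246 in dKO (log2 fold change -0.99 with SE 0.28, adjusted p = 0.225). Reads of these copies may not be separable.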
